A study of Mus musculus with 16 samples.

Results

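The 8 mouse members of the GIMAP family (GTPases of immunity-associated proteins) were followed across freshly isolated naïve CD4+ T cells and CD4+ T cells undergoing regulatory T cell differentiation, in the presence and absence of AIM2. Members were taken by name, with earlier results of these data known. Every row of the gene tables whose symbol is Gimap1, Gimap3, Gimap4, Gimap5, Gimap6, Gimap7, Gimap8 or Gimap9 was taken. This gave 8 of 53090 genes, and all 8 passed the filter on low counts in every comparison. RNA from spleen CD4+ T cells was sequenced in 16 libraries, 4 in each of 4 groups. Naïve T cells (Tn) were selected magnetically as CD44low CD62Lhigh cells from C57BL/6 wild-type (WT) mice or from AIM2-deficient mice (Aim2-/-, C57BL/6 background), and were never cultured. Cells called Treg came from the same 2 genotypes after 48 h with anti-CD3 and anti-CD28 antibodies, recombinant human TGF-β and recombinant mouse IL-2. WT Treg and Aim2-/- Treg therefore differ from their Tn counterparts by T cell receptor stimulation, both cytokines and time in culture all at once, and these cannot be told apart. The label Treg names the culture condition, since FOXP3+ cells were not sorted before RNA extraction. Sexes and ages were matched between genotypes but are not stated, and no source ties a library to an individual mouse, so the p-values below measure the spread between libraries.

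GIMAP proteins are GTP-binding proteins of lymphocytes that share an AIG1-type GTPase domain. Several are anchored in intracellular membranes, such as those of the endoplasmic reticulum, the Golgi apparatus, mitochondria and lysosomes. They are best known for keeping resting lymphocytes alive: loss of Gimap5 in rats and mice causes severe T lymphopenia, and loss of Gimap1 removes mature T and B cells from the periphery. Their genes lie side by side in a single cluster in mammals.

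The family's shared feature can be read in the coding sequence. Each G domain holds a P-loop, the stretch that wraps around the phosphates of the bound nucleotide, with the amino acid pattern glycine, 4 free residues, glycine, lysine, and serine or threonine. The 24 bases that encode it are shown for every member (GRCm38, 5′ to 3′ on the coding strand, first match in the coding sequence) because they give both the family resemblance and the one pair that is nearly a copy. Capitals mark the codons of the fixed residues.
Gimap6, chr6:48702750-48702773 (-): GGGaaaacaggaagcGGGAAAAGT
Gimap7, chr6:48723524-48723547 (+): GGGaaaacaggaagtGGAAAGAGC
Gimap3, chr6:48765887-48765910 (-): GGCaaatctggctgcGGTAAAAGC
Gimap5, chr6:48752594-48752617 (+): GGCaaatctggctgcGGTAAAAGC
Gimap4, chr6:48690421-48690444 (+): GGAaaaactggagcaGGAAAGAGT
Gimap8, chr6:48650256-48650279 (+): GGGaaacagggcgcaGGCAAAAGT
Gimap1, chr6:48742552-48742575 (+): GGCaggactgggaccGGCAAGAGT
Gimap9, chr6:48677523-48677546 (+): GGGaagactggaaatGGGAAGAGT
Gimap3 and Gimap5 had the same 24 bases, and no other pair of members did. Gimap8 is the long member, with a coding sequence of 2064 bases against 873 to 984 for the other 7, and its coding sequence held 3 matches to the pattern where each of the others held 1. Aligned coding sequences of Gimap3 and Gimap5 were 90.4% identical, whereas pairs among the other single-domain members, or of these with Gimap3 or Gimap5, ranged from 55.8% to 67.9%.

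That resemblance sets how well reads can be assigned. The reads were 51 bases long. Of the distinct 51-base stretches in the annotated transcripts of Gimap3, 7.24% also occurred in Gimap5, and 4.36% of those of Gimap5 occurred in Gimap3. Gm28053, a model that runs from the start of Gimap7 into Gimap5, shared stretches with Gimap1, Gimap5, Gimap7 and Gimap3. Between 92.2% and 100% of each member's stretches were found in no other gene on the same strand. Expected counts were not whole numbers in any of the 16 libraries for Gimap1, Gimap3 and Gimap5, and were whole in all 16 for the other 5 members. The deposited counts of Gimap1, Gimap3 and Gimap5 are therefore partly a statistical split of shared reads.

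The libraries held 22516424 to 34533316 expected counts each, so that 3 counts corresponded to 0.0869 to 0.133 CPM (counts scaled to a common library size). Levels below are CPM after TMM scaling over all 16 libraries. Aim2 itself fell from 35.1 ± 2.75 CPM (SD, n = 4) in WT Tn to 7.41 ± 1.24 CPM in Aim2-/- Tn, and from 39.9 ± 3.19 CPM in WT Treg to 9.20 ± 1.58 CPM in Aim2-/- Treg, which is the direction the labels require. Transcripts of the T cell receptor complex and of Cd4, Cd5 and Lck were high in every library, with 2453 to 6759 CPM summed over 9 genes. Summed markers of B cells (0.371 to 3.12 CPM over 6 genes), of myeloid cells (0.236 to 8.59 CPM over 7) and of erythroid cells and platelets (0.0337 to 5.15 CPM over 6) were low, as were those of CD8 T cells (2.26 to 12.2 CPM over 2). Endothelial markers summed to 204 to 283 CPM over 6 genes in Tn and 23.2 to 50.5 CPM in Treg, and the 1 of them tested between genotypes in Tn was Pecam1, which T cells also express. NK cell markers summed to 12.9 to 34.8 CPM over 4 genes in Tn and to 1.33 to 6.08 CPM in Treg. Among the WT Tn libraries, replicates 1 and 2 stood apart from replicates 3 and 4: the chi-square per gene was 73.3 to 94.2 between these pairs and 11.5 to 13.5 within them. The same numbers separated in Aim2-/- Treg, by less (21.6 to 49.5 between and 10.3 to 13.5 within).

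In naïve cells the family was abundant. All 8 members together made up 3833 ± 430 CPM (SD, n = 4) in WT Tn and 4419 ± 223 CPM in Aim2-/- Tn, which is 0.350% to 0.477% of a library's counts. In Treg the sum was 485 ± 19.7 CPM in WT and 483 ± 35.9 CPM in Aim2-/- cells. No Treg library reached 511 CPM and no Tn library was below 3330 CPM.

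**Figure D1:**
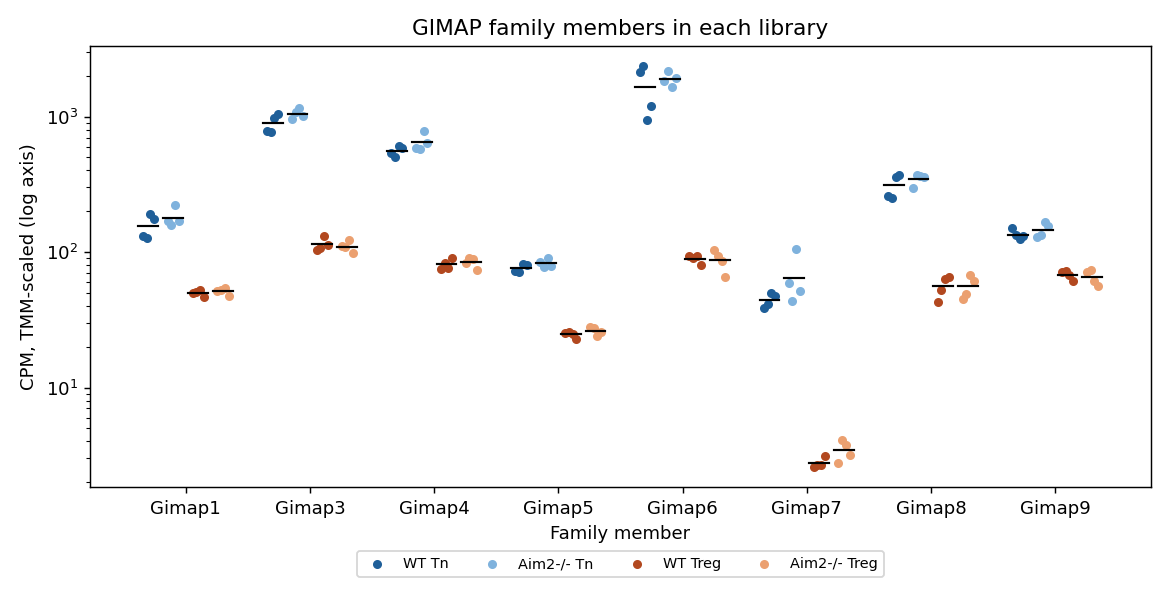
Level of each GIMAP family member in each of the 16 libraries, in TMM-scaled CPM on a log axis; dots are libraries, colours are the 4 groups and black lines are group means (n = 4). For every member all 8 Tn libraries sit above all 8 Treg libraries, and the gap is widest for Gimap6 and Gimap7; WT and Aim2-/- dots overlap for all 8 members.

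The first comparison asked what happens to the family when naïve cells are stimulated under Treg conditions. All 8 members fell, in both genotypes, and for each of them the Tn and Treg libraries did not overlap. The falls ran from 19.0-fold for Gimap6 to 2.02-fold for Gimap9 in WT cells, and from 22-fold to 2.25-fold for the same genes in Aim2-/- cells. Much of the transcriptome moved as well: 39.2% of the 13675 genes tested in WT cells and 40.2% of 13713 in Aim2-/- cells were called lower, so a fall as such was common. Groups did not overlap for 72.9% and 74.8% of genes. A fall of at least 8-fold was seen for 3 of the 8 members in each genotype (Gimap6, Gimap7 and Gimap3), beside 4.86% (WT) and 6.05% (Aim2-/-) of all genes tested. The median log2 change of the 8 members was -2.66 in WT and -2.80 in Aim2-/- cells, beside medians of -0.05 and -0.04 over all genes tested. Markers of other cell types also fell: in WT cells every tested marker of B cells (2), NK cells (2), myeloid cells (2) and erythroid cells and platelets (1) was called lower, from sums that were small beside the family in Tn. Of the 2 endothelial markers tested, Pecam1 fell (log2 -2.82, edgeR adjusted p = 1.28e-06) and Egfl7 rose (log2 4.83, edgeR adjusted p = 7.44e-06). The part of these markers in the result was not tested. In bulk RNA, fewer cells of a kind and less RNA of a gene per cell cannot be told apart. CPM is a share of a library's counts, so a fall in CPM does not give the amount of RNA per cell, which was not measured.

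Gimap6 binds GABARAPL2, a member of the ATG8 family of autophagy proteins. It had the highest mean CPM of the 8 members in both Tn groups, although Gimap3 was higher in replicate 3 of WT Tn. In WT Tn it reached 2137, 2363, 937 and 1202 CPM (replicates 1 to 4), and in Aim2-/- Tn 1833, 2186, 1648 and 1939 CPM. In WT Treg it was 92.8, 90.6, 92.7 and 80.8 CPM, and in Aim2-/- Treg 103, 93.3, 85.9 and 65.4 CPM. The lowest naïve library was thus still far above the highest Treg library. The log2 fold change was -4.25 (SE 0.30, edgeR quasi-likelihood adjusted p = 1.31e-06) in WT and -4.46 (SE 0.16, adjusted p = 6.37e-10) in Aim2-/- cells. Only 1.85% of genes tested in WT cells fell further.

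Gimap7 is a GTPase that dimerises when it binds GTP. It was the member with the lowest mean CPM in all 4 groups, and in Treg it was low but detected, well above the level of 3 counts. Its levels were 38.4, 41.2, 50.1 and 47.1 CPM in WT Tn and 59.2, 43.3, 105 and 51.1 CPM in Aim2-/- Tn. They were 2.60, 2.69, 2.69 and 3.11 CPM in WT Treg and 2.79, 4.13, 3.74 and 3.19 CPM in Aim2-/- Treg. Replicate 3 of Aim2-/- Tn stood above the other 7 naïve libraries, which lay between 38.4 and 59.2 CPM. The fall was 16.3-fold in WT (log2 -4.03, SE 0.12, edgeR adjusted p = 3.93e-09) and 18.7-fold in Aim2-/- cells (log2 -4.23, SE 0.29, edgeR adjusted p = 2.76e-07).

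Gimap3 and Gimap5, the pair that shares reads, differed strongly in level and in depth of fall. Gimap3, known in mice for its effect on the segregation of mitochondrial DNA, was at 779, 775, 984 and 1037 CPM in WT Tn and at 956, 1081, 1152 and 1016 CPM in Aim2-/- Tn. After culture it was at 103, 107, 131 and 113 CPM in WT and at 110.4, 109, 122 and 97.6 CPM in Aim2-/- cells. Its fall was 8.03-fold in WT (log2 -3.00, SE 0.12, edgeR adjusted p = 2.37e-08) and 9.64-fold in Aim2-/- cells (log2 -3.27, SE 0.10, edgeR adjusted p = 2.15e-10).

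Gimap5, the member whose loss empties the T cell compartment, was at 71.9, 71.5, 82.0 and 80.8 CPM in WT Tn and at 83.9, 77.6, 90.5 and 78.8 CPM in Aim2-/- Tn. It was at 25.5, 25.8, 24.9 and 22.7 CPM in WT Treg and at 27.9, 27.5, 24 and 25.5 CPM in Aim2-/- Treg. Libraries of a group lay close together for this gene, and its fall was 3.16-fold in WT (log2 -1.66, SE 0.08, edgeR adjusted p = 7.28e-08) and 3.17-fold in Aim2-/- cells. With the counts of Gimap3 and Gimap5 added into a single row, the log2 fold change was -2.84 in WT and -3.07 in Aim2-/- cells. This row is dominated by Gimap3.

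Gimap4, linked to the pace of T cell death after its onset, was at 539.9, 501, 603 and 586 CPM in WT Tn and at 586, 573, 789 and 636 CPM in Aim2-/- Tn. In Treg it was at 74.4, 83.6, 75.7 and 90.2 CPM in WT and at 83.4, 90.9, 88.1 and 73.6 CPM in Aim2-/- cells. It fell 7.04-fold in WT (log2 -2.82, SE 0.09, edgeR adjusted p = 5.70e-09) and 7.74-fold in Aim2-/- cells.

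Gimap8, the long member with 3 P-loop matches, was at 260.3, 252, 358 and 369 CPM in WT Tn and at 297, 372, 362 and 358 CPM in Aim2-/- Tn. In Treg it was at 43.0, 52.4, 63.8 and 65.1 CPM in WT and at 44.7, 49.2, 67.7 and 61.2 CPM in Aim2-/- cells. In WT Tn, WT Treg and Aim2-/- Treg, replicates 1 and 2 were below replicates 3 and 4. The fall was 5.65-fold in WT (log2 -2.50, SE 0.18, edgeR adjusted p = 8.52e-07) and 6.28-fold in Aim2-/- cells.

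Gimap1, required for the survival of mature lymphocytes, was at 130.4, 128, 191 and 176 CPM in WT Tn and at 169, 158, 221 and 168 CPM in Aim2-/- Tn. After culture the 8 libraries lay between 46.7 and 54.3 CPM. It fell 3.20-fold in WT (log2 -1.68, SE 0.14, edgeR adjusted p = 2.09e-06) and 3.52-fold in Aim2-/- cells. Of its 51-base stretches, 32.4% lay on the opposite strand of Gimap1os. The kit marks strand, but the strand setting of the counting step is not given in the sources used here. Counts of 4833403J16Rik and Gm44226, which overlap on opposite strands in this cluster, were fractions that add to whole numbers in every library (360.67 and 357.33 in WT Tn replicate 1). Counting therefore did not keep these strands apart. Gimap1os counts were not whole in 14 of 16 libraries, so reads of Gimap1 and Gimap1os were partly split between them.

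Gimap9 kept the most of its naïve level. It was at 149.6, 133, 125 and 132 CPM in WT Tn and at 129.6, 135, 165 and 156 CPM in Aim2-/- Tn. It remained at 71.3, 72.6, 67.2 and 60.8 CPM in WT Treg and at 71.2, 73.5, 60.8 and 55.8 CPM in Aim2-/- Treg. The log2 fold change was -1.02 (SE 0.09, edgeR adjusted p = 2.84e-06) in WT and -1.17 (SE 0.11, edgeR adjusted p = 1.94e-06) in Aim2-/- cells, and 24.3% of genes tested in WT cells fell further.

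**Figure D2:**
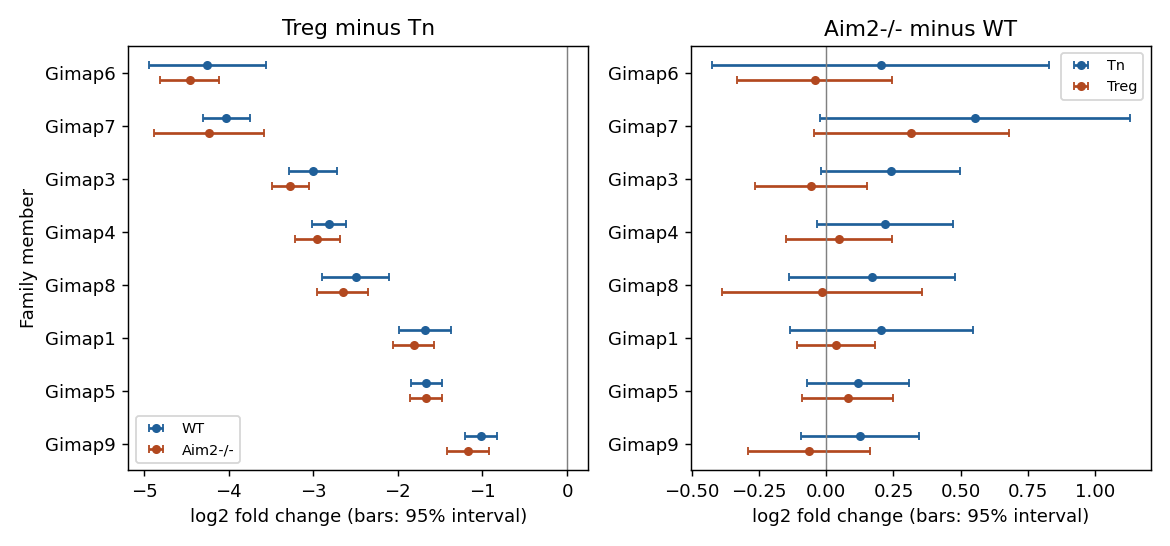
Log2 fold changes of the 8 members with 95% intervals from the edgeR fits, Treg minus Tn in each genotype (left) and Aim2-/- minus WT in each cell state (right), in the order of the fall in WT cells. On the left all intervals lie below 0, from -4.25 for Gimap6 to -1.02 for Gimap9 in WT cells; on the right all 16 intervals include 0.

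The falls were therefore unequal within the cluster. To see which steps in the order exceeded the spread between libraries, the order was set in WT cells (Gimap6, Gimap7, Gimap3, Gimap4, Gimap8, Gimap1, Gimap5, Gimap9) and the ratio of each neighbouring pair was compared between Treg and Tn in Aim2-/- cells. A ratio of 2 members in a library does not depend on library scaling. Of the 7 steps, 4 separated the 4 Treg from the 4 Tn libraries without overlap, each at the smallest p this design allows (two-sided exact permutation p = 0.0286, adjusted 0.05 over 7 tests, which is at and not below the threshold). These were Gimap7 against Gimap3 (change of the log2 ratio -0.89), Gimap3 against Gimap4 (-0.32), Gimap8 against Gimap1 (-0.86) and Gimap5 against Gimap9 (-0.49). The share of other gene pairs whose ratio separates in this way was not computed. Single genes did so for 74.8% of genes tested in Aim2-/- cells, so the count of separated steps is not a trait particular to the family. Gimap6 and Gimap7, Gimap4 and Gimap8, and Gimap1 and Gimap5 could not be separated from each other by their fall (exact permutation p = 0.457, 0.229 and 0.229). In WT cells themselves, 3 of the same 4 steps had no overlap, and Gimap3 against Gimap4 overlapped. The WT libraries set the order, so their values are not a second test of it.

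**Figure D3:**
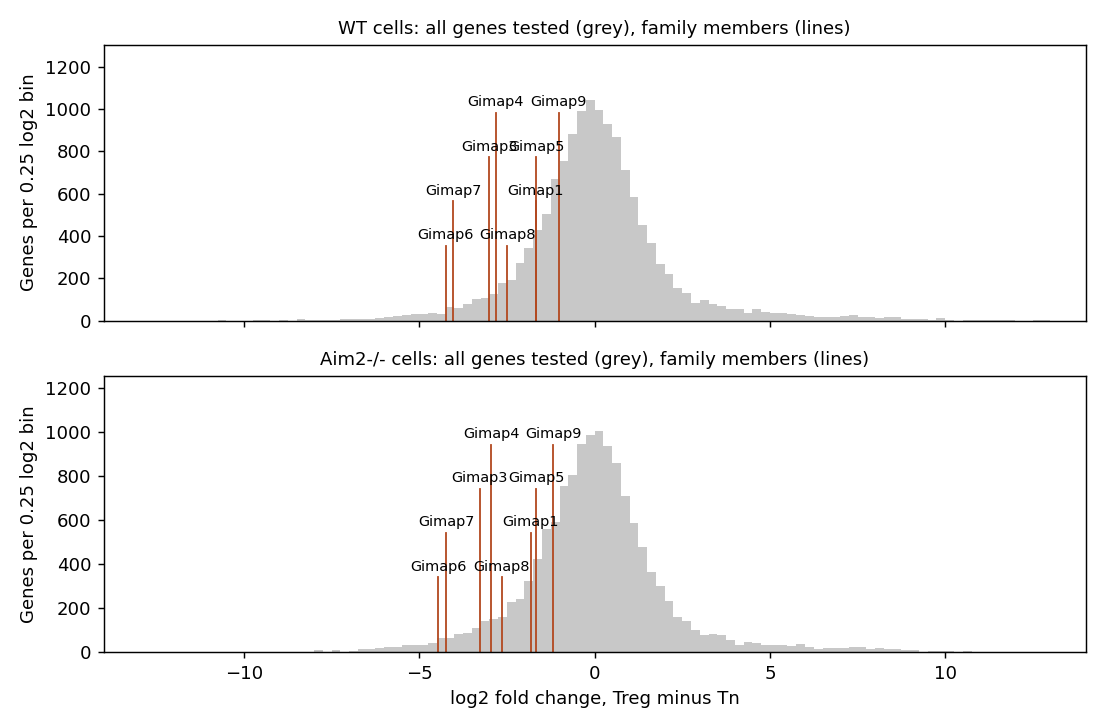
Distribution of log2 fold changes, Treg minus Tn, over all genes tested in WT (top) and Aim2-/- cells (bottom), as genes per bin of 0.25 log2 units, with a line at each family member (line height has no meaning). The members sit to the left of the bulk of genes, Gimap6 and Gimap7 in the far tail and Gimap9 on the shoulder at -1.02 and -1.17.

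Unequal falls changed the make-up of the family's transcripts. Levels of different genes are compared per kilobase of annotated exon length, taken over all exons of all transcripts of a gene. For Gimap6 this was 3496 bases, beside 1594 for the transcript with the longest coding sequence. The same lengths were 1837 and 1804 for Gimap4, and 1642 and 1384 for Gimap9. A shorter length for Gimap6 would raise it against these members, so the order and the shares depend on this choice. The fall of each member does not. In WT Tn, Gimap6 (475 CPM per kb), Gimap3 (347) and Gimap4 (303) led, with ranges that overlapped between neighbours, followed at a distance by Gimap8 (83.8) and Gimap9 (82.0), whose ranges also overlapped. Gimap1 (50.8) was next, and Gimap7 (19.0) and Gimap5 (18.5) were lowest, again with overlapping ranges. Aim2-/- Tn gave the same order, with Gimap6 at 544 CPM per kb clear of Gimap3 at 408. In WT Treg, Gimap3 (44.1), Gimap4 (44.1) and Gimap9 (41.4 CPM per kb) shared the top with overlapping ranges, followed by Gimap6 (25.5), and Gimap7 (1.19) was last. Of the family's counts per kilobase, Gimap6 held 21.4% to 45.8% in WT Tn and 12.0% to 14.3% in WT Treg, while Gimap9 held 5.48% to 6.31% in WT Tn and 19.2% to 23.4% in WT Treg. Shares of Gimap3 (20.4% to 30.4% in WT Tn, 21.3% to 25.4% in WT Treg) overlapped between the cell states. Corresponding shares in Aim2-/- cells were 28.0% to 38.4% and 11.0% to 14.9% for Gimap6, and 5.04% to 5.99% and 18.5% to 22.2% for Gimap9. Without division by length, Gimap6 held 28.2% to 55.4% of the family's counts in WT Tn and 16.7% to 20.1% in WT Treg. Gimap9 held 3.11% to 3.74% and 12.6% to 15.4%.

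**Figure D4:**
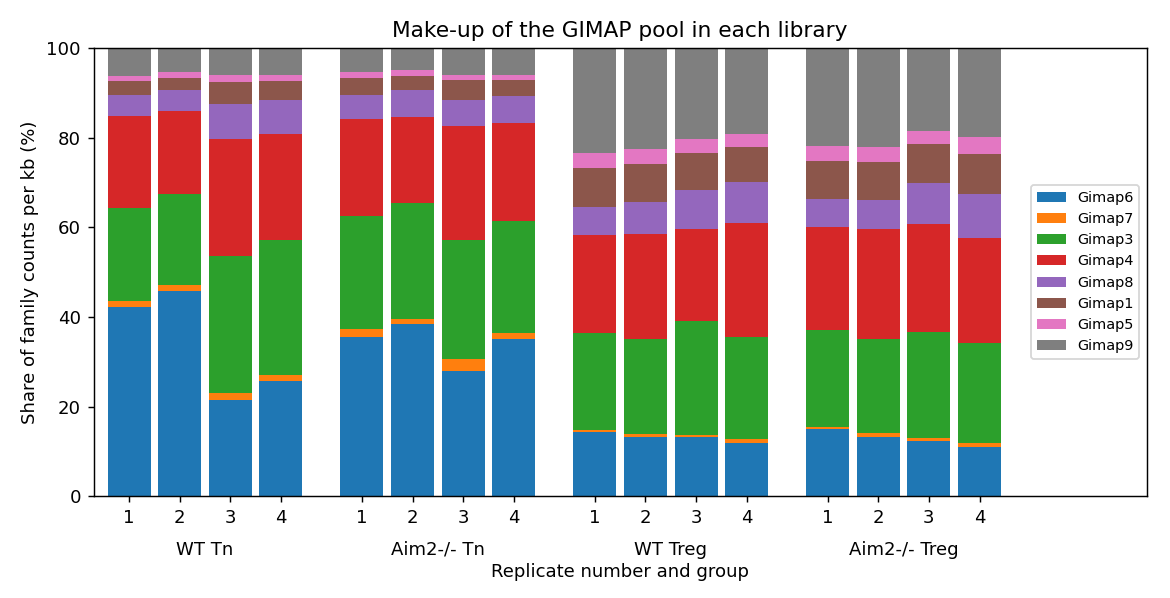
Share of each member in the family's counts per kilobase, in percent, for each of the 16 libraries (bars, by replicate number within the 4 groups). Gimap6 (lowest segment) holds 21.4% to 45.8% in WT Tn and at most 14.9% in any Treg library, and Gimap9 (top segment) widens from at most 6.31% in Tn to at least 18.5% in Treg; WT Tn replicates 3 and 4 differ from replicates 1 and 2 in the Gimap6 segment.

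Within WT naïve cells Gimap6 did not move with most other members. Replicates 3 and 4 had less Gimap6 (937 and 1202 CPM) than replicates 1 and 2 (2137 and 2363 CPM), but more Gimap1, Gimap3, Gimap4, Gimap5, Gimap7 and Gimap8. Gimap9 was also lower in replicates 3 and 4 (125 and 132 CPM) than in replicates 1 and 2 (149.6 and 133 CPM), by much less. This is the split that separates these libraries over all genes. The SD of log2 CPM of Gimap6 in WT Tn was 0.64, beside a median of 0.16 over genes with a mean of at least 10 CPM, and 0.17 in Aim2-/- Tn. Among the other 7 members the same SD in WT Tn ran from 0.11 (Gimap5) to 0.30 (Gimap1). The part played by the split was not tested.

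The 8 genes span 123.618 kb of chromosome 6 (GRCm38, chr6:48647234-48770851, from Gimap8 to Gimap3), with Gimap3 and Gimap6 on the minus strand and the other 6 on the plus strand. Order along the chromosome was not the order of the falls: Gimap9, with the smallest fall, lies between Gimap8 and Gimap4, and Gimap6 and Gimap7, with the deepest, are adjacent members in the middle. The annotation places 5 further genes between the first and the last member. Of the 4 that passed the filter, 3 fell in WT cells: the antisense transcript Gimap1os (log2 -2.60, edgeR adjusted p = 4.22e-07) and the long noncoding RNAs 4833403J16Rik (-2.71, edgeR adjusted p = 1.03e-07) and Gm44226 (-1.98, edgeR adjusted p = 1.35e-06). These 2 noncoding genes overlap each other on opposite strands, and the counts of both were not whole in any of the 16 libraries. Counts of Gimap1os were not whole in 14 libraries. The 3 falls thus rest partly on reads shared between these 2 genes, and between Gimap1os and Gimap1, and are not independent. The read-through model Gm28053, at 2.83 to 5.83 CPM in WT Tn and 3.04 to 3.58 CPM in WT Treg, gave log2 -0.48 (edgeR adjusted p = 0.0968) and did not pass, and the pseudogene Gm44262 had too few counts to test. In Aim2-/- cells the same 3 of 4 fell. Of 47 other genes within 500 kb on either side, 18 were tested in WT cells, of which 11 fell, 5 rose and 2 did not pass; in Aim2-/- cells 19 were tested, of which 10 fell, 4 rose and 5 did not pass. Over all genes tested, 39.2% fell and 37.7% rose in WT cells, and 40.2% fell and 39.1% rose in Aim2-/- cells. The median log2 change of the flanking genes was -0.88 and -0.86, so it lay between that of the family and that of all genes. Mean CPM over the 16 libraries of those tested in WT cells ran from 0.343 (Rarres2) to 160 (Tra2a), so some of these values rest on few counts. Whether the median is tied to position was not tested.

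**Figure D5:**
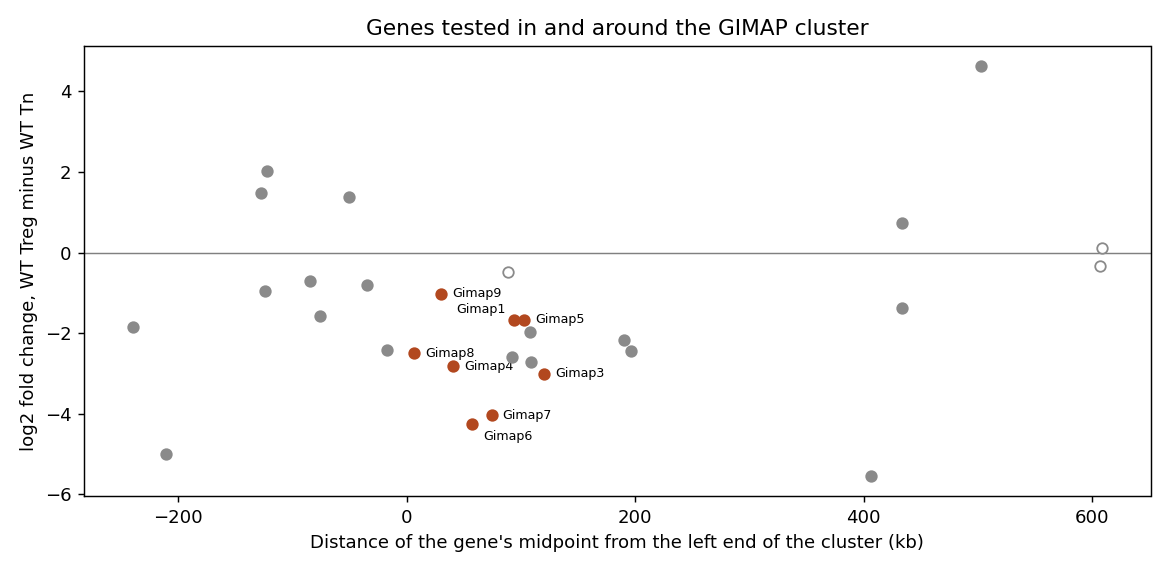
Log2 fold change, WT Treg minus WT Tn, of every gene tested in and around the cluster against the distance of its midpoint from the start of Gimap8 in kb (red, family members; grey, other genes; filled, called). Members lie between -1.02 and -4.25 inside the cluster, while flanking genes lie on both sides of 0.

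Sequence upstream of the starts is shown for the members at the ends of the range, Gimap6 and Gimap7 with the deepest falls and Gimap9 with the smallest (RefSeq, GRCm38.p6, 250 bases before the annotated start, 5′ to 3′ on the gene's strand). Capitals mark matches, on either strand, to letters commonly bound by RUNX factors (TGTGGT or TGCGGT) and ETS factors (CCGGAA or CAGGAA).
Gimap6, chr6:48708245-48708494 (-): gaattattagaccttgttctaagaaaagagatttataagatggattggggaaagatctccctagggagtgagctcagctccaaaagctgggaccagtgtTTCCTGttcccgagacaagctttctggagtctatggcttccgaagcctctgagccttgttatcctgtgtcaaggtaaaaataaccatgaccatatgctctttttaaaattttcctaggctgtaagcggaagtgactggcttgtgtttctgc
Gimap7, chr6:48718371-48718620 (+): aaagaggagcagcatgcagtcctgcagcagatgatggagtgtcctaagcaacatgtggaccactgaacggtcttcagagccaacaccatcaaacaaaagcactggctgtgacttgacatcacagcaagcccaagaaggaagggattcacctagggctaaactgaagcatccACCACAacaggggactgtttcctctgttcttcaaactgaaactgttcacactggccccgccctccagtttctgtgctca
Gimap9, chr6:48675885-48676134 (+): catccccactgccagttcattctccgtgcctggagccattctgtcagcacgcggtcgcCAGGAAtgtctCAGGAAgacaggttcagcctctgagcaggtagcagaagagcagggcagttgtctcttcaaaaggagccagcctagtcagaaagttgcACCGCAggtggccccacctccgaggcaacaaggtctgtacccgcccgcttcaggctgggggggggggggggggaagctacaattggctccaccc
Gimap6 held 1 ETS match, Gimap7 held 1 RUNX match, and Gimap9 held 2 ETS matches and 1 RUNX match. RefSeq gave 9 upstream windows for the 8 members, with a pair of overlapping windows for Gimap8. RUNX letters were in 4 of the 9 and in 18.6% of 32851 windows of the same length, and ETS letters in 5 of the 9 and in 35.1% of all. Letters of FOX factors (GTAAACA) were in 1 of the 9, that of Gimap3, and in 3.17% of all. Those of KLF (CACCC) and NFAT factors (GGAAA) were in 6 and 7 of the 9, beside 52.0% and 55.6% of all windows, and an NFAT match can share its GGAA with an ETS match. Those of TCF and LEF factors (CTTTGA) and AP-1 (TGACTCA or TGAGTCA) were in 0 of the 9, beside 13.8% and 4.46% of all. With 9 windows these shares are a description of the letters only.

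Gene lists chosen around the family describe the setting of the fall. Of 18 genes that maintain or mark naïve T cells, 15 fell in WT cells and 3 (Bach2, Foxp1 and Runx1) did not pass. Their median log2 change was -2.08. In Aim2-/- cells 15 also fell and the median was -2.22. A fall was called for 39.2% (WT) and 40.2% (Aim2-/-) of all genes tested. Il7r, the receptor chain for the survival cytokine IL-7, went from 507 to 8.12 CPM in WT cells (log2 -6.00, edgeR adjusted p = 6.53e-09). Klf2, a transcription factor of quiescence and recirculation, went from 277 to 23.2 CPM (log2 -3.61, edgeR adjusted p = 2.55e-08), and Satb1, a chromatin organiser of T cells, from 862 to 71.3 CPM (log2 -3.63, edgeR adjusted p = 3.29e-08). Of 9 genes of culture and activation, 7 rose in each genotype, beside 37.7% (WT) and 39.1% (Aim2-/-) of all genes tested, among them Foxp3, the lineage factor of Treg cells, from 2.74 to 477 CPM, Il2ra from 3.46 to 1452 CPM and the proliferation marker Mki67 from 7.89 to 1341 CPM. The remaining pair, named after their values were seen, were Cd69, which fell (log2 -2.38), and Ctla4, which did not pass (log2 0.59, edgeR adjusted p = 0.355). Of the 9 T cell identity genes (the receptor complex, Cd4, Cd5 and Lck), 8 fell in WT and 9 in Aim2-/- cells. Their medians of -1.37 and -1.51 lay between the falls of Gimap9 and Gimap5 in each genotype.

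Genes whose products are known to bind GIMAP proteins or to act with them went both ways. Of 13 such genes, 5 rose and 8 fell in WT cells, and 4 rose and 8 fell in Aim2-/- cells. Among all genes tested, 37.7% rose and 39.2% fell in WT cells, and 39.1% and 40.2% in Aim2-/- cells. In the BCL2 family, to which GIMAP proteins have been tied through binding, Mcl1, a protective member, fell from 654 to 226 CPM in WT cells (log2 -1.56, edgeR adjusted p = 9.36e-08) and Bcl2l11, which encodes the death-promoting BIM, fell from 88.1 to 8.58 CPM (log2 -3.39, edgeR adjusted p = 2.63e-06). Bcl2l1, which encodes the protective BCL-XL, rose from 13.5 to 112 CPM (log2 3.02, edgeR adjusted p = 1.62e-09). Among ATG8 family genes, Gabarapl2, the partner of Gimap6, fell by 0.37 on the log2 scale (edgeR adjusted p = 5.37e-04), from 75.4 to 59.4 CPM, beside the 19.0-fold fall of Gimap6 itself; it is named as that partner, after its values were seen. Gabarapl1 rose from 2.91 to 45.9 CPM (log2 3.95, edgeR adjusted p = 3.07e-06).

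Genes with a pattern most like the family's were sought over all 16 libraries among 8544 genes with a mean of at least 10 CPM, by the root mean square difference between each gene's centred log2 CPM and the mean of the 8 members. The 5 nearest were Itgb7 (0.12), an integrin chain of gut homing, Tk2 (0.12), the mitochondrial thymidine kinase, Gsdmd (0.13), the pore-forming gasdermin, Rabac1 (0.15), a Rab-binding membrane protein, and Zfp36l2 (0.15), an RNA-binding protein that promotes mRNA decay. Their log2 changes in WT cells were -2.46 to -2.82. The family's own members lay at 0.12 (Gimap4) to 0.89 (Gimap6) from their common mean, so that only Gimap4 lay within the range of these 5 genes. All 16 libraries share the large difference between Tn and Treg, which dominates this measure.

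The second comparison asked whether the absence of AIM2 changes the family. In naïve cells 0 of the 8 members passed the test, beside 0.231% of 13441 genes (31 genes), and 0 of 8 had an unadjusted p under 0.05, beside 10.3% of genes. DESeq2 and limma-voom also called 0 of 8. All 8 fitted values were above 0, with a median of 0.20 on the log2 scale beside 0.01 over all genes, and the groups overlapped for every member (6.95% of genes had groups that did not overlap). The largest was that of Gimap7, at 0.55 (95% interval -0.02 to 1.13, edgeR adjusted p = 0.50), which was 0.22 without replicate 3 of Aim2-/- Tn. Gimap3 gave 0.24 (-0.02 to 0.50, edgeR adjusted p = 0.511), and Gimap5 gave 0.12 (-0.07 to 0.31), the smallest of the 8. All 8 intervals included 0.

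Gimap6 gave 0.20 in naïve cells, with the widest interval of the family (-0.43 to 0.83). Its value turned with the split among the WT Tn libraries: it was -0.15 (edgeR adjusted p = 0.679) with replicates 1 and 2 of both genotypes only, and 0.73 (edgeR adjusted p = 0.0329, the one member called in any of the fits) with replicates 3 and 4 only. Values of other gene lists in the same naïve libraries are given beside these. The 9 T cell identity genes had a median of 0.15, with 8 of 9 above 0 and 0 called. The 18 genes that maintain or mark naïve T cells had a median of -0.04, with 6 above and 12 below 0. The 13 genes of GIMAP partners had a median of 0.07 (8 above and 5 below 0). The 9 genes of culture and activation had a median of 0.12 (7 above and 2 below 0). None of these was called. Summed B cell markers were 1.54 to 2.15 CPM in WT Tn and 2.44 to 3.12 CPM in Aim2-/- Tn, and erythroid and platelet markers were 0.712 to 2.63 and 3.68 to 5.15 CPM, with no overlap between genotypes in either list. Their part in the GIMAP values was not tested.

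In Treg cells 0 of 8 members passed, beside 0.219% of 13221 genes (29 genes), and 0 of 8 had an unadjusted p under 0.05, beside 2.30% of genes. DESeq2 and limma-voom called 0 of 8 here too. Of the fitted values, 4 were above and 4 below 0, with a median of 0.01, the groups overlapped for all 8 (2.26% of genes had groups that did not), and 7 of the 8 values lay between -0.06 and 0.08. The exception was Gimap7 at 0.32 (95% interval -0.05 to 0.68, edgeR adjusted p = 1.00), a gene of 2.60 to 4.13 CPM in these libraries. The 95% interval of the genotype difference in Treg was -0.27 to 0.15 for Gimap3, -0.15 to 0.24 for Gimap4 and -0.33 to 0.24 for Gimap6.

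Whether the fall itself differed between genotypes was tested as the interaction of genotype and culture. None of the 8 members passed the edgeR test, beside 0.0205% of 14669 genes (3 genes), 0 of 8 had an unadjusted p under 0.05, beside 3.49% of genes, and DESeq2 and limma-voom called 0 of 8. All 8 interaction values were below 0, with a median of -0.18, and ranged from -0.29 for Gimap3 (95% interval -0.61 to 0.04) to -0.03 for Gimap5 (-0.26 to 0.21). These values are built from the same libraries as the differences between genotypes in naïve cells. By construction they take the opposite direction to those differences where the Treg values are near 0. The widest intervals were those of Gimap6 (-0.93 to 0.46) and Gimap7 (-0.91 to 0.46), against falls of -4.25 and -4.03 in WT cells.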

How the data were processed

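RNA from 16 mouse libraries (4 groups of 4) was analysed. The authors made poly(A) libraries with a stranded kit, sequenced single-end reads, aligned them to GRCm38 with STAR and deposited the RSEM expected count of each gene on the GENCODE m15 annotation, not normalized; tool versions and the strand setting are not given in the sources used here. Here expected counts were rounded, a gene was kept where 4 or more libraries of the comparison reached 10 counts, and edgeR 4.0.16 quasi-likelihood tests with TMM scaling were fitted to the libraries of each comparison over all genes, with Benjamini-Hochberg adjustment and a threshold of 0.05. The study used limma-voom; limma 3.58.1 and DESeq2 1.42.0 were alternatives. The edgeR fit was also run on simulated counts for Aim2-/- against WT in Tn and for Treg against Tn in WT, not for the other comparisons. The outcome is not given here. Groups came from the labels. Named genes were the 8 members, all genes between them, list examples with the smallest p, and the 5 genes of most similar pattern; members and lists were chosen with earlier results of these data known. Where 2 rows carried a listed symbol, the row with more counts was used (2 rows left out). Exon lengths came from GENCODE M21, a later release than that of the counts, which held 92.4% of the 53090 genes. Intervals cover the spread between libraries.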

Additional observations from a re-analysis of the deposited data

How the results depend on the processing

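All 8 members were called lower in Treg in both genotypes under each of the 19 alternatives tried per genotype: RLE, upper quartile or no scaling factors, DESeq2, limma-voom, either other filter, the replicate block, all 16 libraries in one fit, replicates 1 and 2 or 3 and 4 only, and leaving out each library (lowest and highest count 8). In the genotype comparisons and the interaction 0 of 8 were called under all of them (0 when any library was left out), except that 1 member, Gimap6, was called in naïve cells with replicates 3 and 4 only (0.73); those fits with 2 libraries a group kept genes that reached 10 counts in 2 or more libraries. Of 437 refitted member values that did not leave out single libraries, 12 changed sign, all of them uncalled genotype or interaction values. With replicates 1 and 2 only these were, in naïve cells, Gimap6 -0.15 and Gimap9 -0.082, in Treg Gimap3 0.059, Gimap6 0.10 and Gimap9 0.0090, and in the interaction Gimap6 0.26, Gimap7 0.028 and Gimap9 0.10. With replicates 3 and 4 only they were Gimap8 in naïve cells -0.026, Gimap4 in Treg -0.046, and in the interaction Gimap5 0.018 and Gimap8 0.034. Leaving out 1 library turned 13 of 384 values: in Treg the ranges were -0.11 to 0.019 for Gimap3, -0.14 to 0.076 for Gimap6, -0.13 to 0.077 for Gimap8 and -0.12 to 0.010 for Gimap9, and in the interaction -0.054 to 0.024 for Gimap5 and -0.36 to 0.11 for Gimap7; the cause was not tested. The labels number replicates 1 to 4 in every group, but deviations of same-numbered libraries correlated above 0.1 in only some pairs and not every library correlated best with its own number, so the numbers were not taken as pairs; the replicate block moved the count of called members in no comparison (8 and 8 for culture, 0 for genotype and interaction). Summing Gimap3 and Gimap5 (chosen after seeing the data) changed no call. The 5 genes of most similar pattern were the same 5 with a minimum of 1 CPM. The fewest counts stood behind Gimap7 in Treg, at 74 to 115 a library in Aim2-/- cells.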
